A study of Mus musculus with 24 samples.

Results

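RNA-seq libraries of RAW264.7 cells labelled Olfml3 knockout were compared with libraries of control RAW264.7 cells, all treated with PBS. This comparison uses 6 of the 24 libraries of the study, 3 for each genotype, which were chosen by sample title and library name. RAW264.7 is a macrophage-like cell line of a male mouse, and PBS is the vehicle that the study set against lipopolysaccharide (LPS). The knockout cells had been made with CRISPR-Cas9 by lentiviral delivery of a guide RNA and by sorting of single cells to obtain clones. The sources used here do not say whether the 3 libraries came from 1 clone or several, or that the control cells were cloned. Clonal origin and the edit therefore cannot be told apart in this comparison. The genotype tag of the samples contradicts the titles for 12 of the 24 libraries and was not used. The other libraries of the study are RAW264.7 cells given 100 ng/mL LPS for 4 h and bone marrow-derived macrophages (BMDMs) of wild-type and Olfml3 knockout mice.

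Olfml3 encodes olfactomedin-like protein 3, a secreted glycoprotein with a coiled-coil and an olfactomedin domain, which is best known in matrix and vessel biology and in microglia. Macrophages recognise microbes through Toll-like receptors, engulf particles through Fc gamma, complement and scavenger receptors, and release chemokines and cytokines. At rest they also keep a low level of type I interferon signalling, which holds antiviral genes above their floor. The study asked how loss of Olfml3 alters such functions, among them phagocytosis, migration and the itaconate pathway.

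The guide RNAs designed against Olfml3 are shown because they set which part of the transcript the edit can alter. Lower case marks the 20 bases of the guide and capitals the adjoining PAM.
Olfml3-1: atgtcccagagagaacgcagAGG
Olfml3-2: gctgccccgtgcctacccagGGG
Both matched exon 3 of 3 of transcript ENSMUST00000029440.9 in the GENCODE M21 annotation of GRCm38. Guide Olfml3-1 matched the sense strand over codons 315 to 322 of 406, and guide Olfml3-2 the antisense strand over codons 206 to 213. Which of them gave the sequenced clone is not stated in the sources used here. Neither removes an exon, so reads can still be counted on an edited gene.

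Olfml3 itself went against the label. Its FPKM (the deposited expression level, in fragments per kilobase of exon and corrected for library size) was 0.19, 0.15 and 0.15 in wild-type replicates 1, 2 and 3 and 0.65, 1.01 and 1.19 in replicates 1, 2 and 3 labelled knockout. The groups did not overlap, with the libraries labelled knockout higher, from 271 counts against 43. The log2 fold change was 1.96 (standard error 0.24, adjusted p = 0.000710, limma with Benjamini-Hochberg adjustment) and 2.19 without replicate 1 (adjusted p = 8.82e-05). In knockout BMDMs with PBS the gene was instead lower, at 0.0167 against 0.597 FPKM. For this reason every direction is given for the libraries as they are labelled.

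The 6 libraries held 13145037 to 16478616 counted reads. Replicate 1 of the libraries labelled knockout lay apart from its group: its mean correlation across genes was 0.964 to its own group and 0.973 to wild type, whereas replicates 2 and 3 correlated at 0.970 and 0.969 with their own group and at 0.954 and 0.951 with wild type. The chi-square per degree of freedom of its counts was 88.9 against replicate 2 and 90.0 against replicate 3, and 2.07 to 2.83 within the other pairs of the same genotype. Ribosomal protein genes took 3.85% to 4.26% of the counts in wild type and in replicate 1, and 2.47% and 2.50% in replicates 2 and 3. Counts are thus given with and without this library. In bulk RNA, fewer cells that express a gene and less of its RNA per cell cannot be told apart. Nothing in the labels says whether the libraries of a group came from separate cultures, so the p values measure a spread between libraries that may be technical. For limma this spread was pooled over the RAW264.7 libraries with PBS and with LPS, and was not that of the 6 libraries alone.

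Genes were called changed where the adjusted p was under 0.05 and the fold change reached 1.5 on the log2(FPKM + 0.1) scale, which understates the change of genes with low FPKM. With all 3 libraries labelled knockout, 2287 of 26740 genes tested were called (8.55%), 1280 higher (4.79%) and 1007 lower (3.77%). Without replicate 1, 5496 were called (20.6%), 3356 higher (12.6%) and 2140 lower (8%). Of the 2287 genes, 2221 were called in the same direction in both fits (8.31% of genes tested), which is 97.1% of the 2287 and 40.4% of the 5496. A stricter set of 1349 genes (5.04%), 675 higher (2.52%) and 674 lower (2.52%), was called in both fits, had no overlap of the groups, and lay at least 1.5-fold from the wild-type mean and outside the wild-type range in replicate 1 as well. These genes are described below as changed in all 3 libraries, and at a mean FPKM of at least 1 they numbered 645 of 11253 (5.73%), of which 307 were higher (2.73%) and 338 lower (3%). Shares of all genes below are over all genes tested unless a level is named, and 15487 of the 26740 lay below a mean FPKM of 1. At 1 or more, 12.7% were called with all libraries. Without replicate 1, the share called lower at that level ran from 1.4% to 37.6% by class of exonic length. The share called higher ran from 5.92% to 54.2%. Lists whose members all reach this level are thus set beside an unlike background. The direction of the calls depended on scaling: 56.0% of the 2287 were higher, against 47.5% of 2107 with median-ratio scaling, 46.4% of 942 with the 6 PBS libraries fitted alone, and 72.5% of 2615 when every library was rescaled to the same FPKM sum (TPM), which moved the median difference of all genes at an FPKM of 1 or more from 0.02 to 0.20. Without replicate 1 the share was 61.1%, and 82.6% of 6084 under TPM, with the median moved from 0.00 to 0.27.

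**Figure D1:**
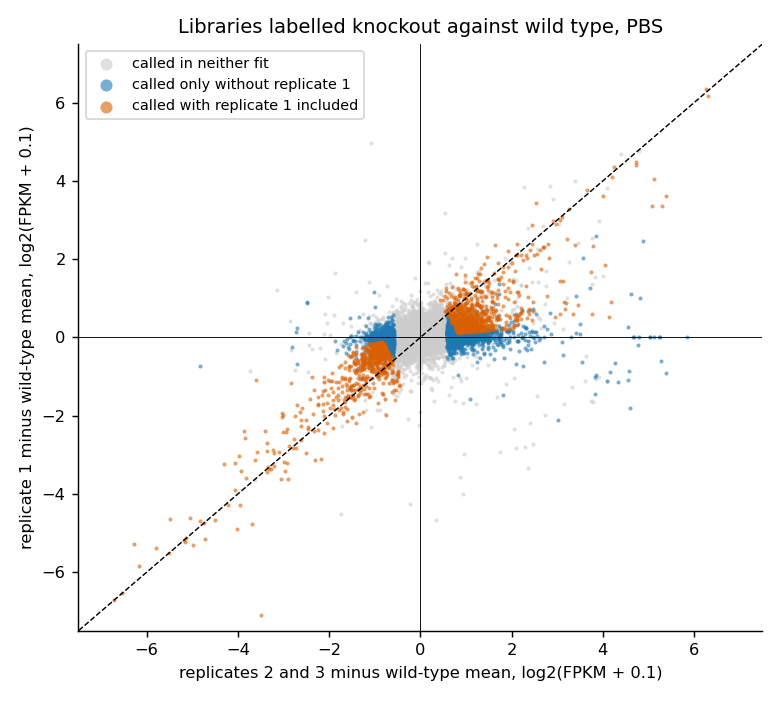
Difference from the wild-type mean on the log2(FPKM + 0.1) scale in replicate 1 labelled knockout (vertical axis) against the mean of replicates 2 and 3 (horizontal axis), 1 point per gene at a mean FPKM of at least 1 over the 6 libraries (11253 genes), with the dashed line marking equal differences. Genes called with replicate 1 included lie along the diagonal at large differences, and those called only without it lie in a band near 0 on the vertical axis.

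The largest rise was in Hpgd, which encodes the dehydrogenase that inactivates prostaglandins (chromosome 8, 56747620 to 56774078 in the deposited table). Its FPKM was 1.56, 1.55 and 1.49 in wild type and 132, 121 and 128 in the libraries labelled knockout. Replicate 1 was the highest of the 3, and the log2 fold change was 6.28 (standard error 0.26, adjusted p = 6.68e-07, limma). P2ry12, an ADP receptor known as a microglial marker, rose from 0.18, 0.19 and 0.18 to 5.93, 8.04 and 6.92 FPKM (log2 fold change 4.63, adjusted p = 6.71e-07). Evl, a regulator of actin filament growth, rose from 0.28, 0.27 and 0.34 to 7.95, 7.87 and 7.03 FPKM (4.28, adjusted p = 4.49e-07). For Hpgd and Evl replicate 1 was the highest of the libraries labelled knockout, and for P2ry12 the lowest.

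Cell-surface receptors were among the other rises. Il21r, the interleukin-21 receptor, had 0.79, 0.69 and 0.73 FPKM in wild type and 8.09, 7.21 and 8.74 in libraries labelled knockout (log2 fold change 3.27, adjusted p = 9.93e-07, limma). Tgfbr1, a TGF-beta receptor chain, rose from 3.8, 3.78 and 3.8 to 15.7, 26.7 and 28.0 FPKM (2.55, adjusted p = 7.25e-05), and here replicate 1 lay closest to wild type. S1pr1, the sphingosine 1-phosphate receptor that guides cell egress, rose from 1.65, 1.87 and 1.80 to 8.65, 12.3 and 10.5 FPKM (2.49, adjusted p = 4.73e-06). Runx3, a lymphoid and myeloid transcription factor, Cd48, a cell-surface ligand of lymphocyte receptors, Siglech, a lectin of plasmacytoid dendritic cells and microglia, and St6gal1, a sialyltransferase, also rose, with log2 fold changes of 3.04, 2.59, 2.94 and 2.56. The joining segments Ighj1, Ighj2 and Ighj4 of the immunoglobulin heavy chain were among the 15 largest rises, and Ighm rose from 162, 151 and 153 to 367, 297 and 298 FPKM (1.04, adjusted p = 9.69e-05). Segments of this locus overlap and share sequence, so reads may be split between them.

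Several falls ended at or near 0. Timp1, an inhibitor of matrix metalloproteinases on chromosome X, had 9.70, 9.98 and 9.17 FPKM in wild type and 0.07, 0 and 0.08 in the libraries labelled knockout (log2 fold change -6.06, standard error 0.21, adjusted p = 2.30e-07, limma). Chst1, a sulfotransferase, fell from 9.78, 9.08 and 11.5 to 0.16, 0.07 and 0 FPKM (-5.95, adjusted p = 1.53e-06). Flt1, the VEGF receptor 1, had 2197 counts in the 3 wild-type libraries and 12 in the 3 labelled knockout (adjusted p = 9.88e-09). Psma8, a proteasome subunit of germ cells, had 983 counts in wild type and 0 in libraries labelled knockout (adjusted p = 1.90e-10). In each case replicate 1 lay with replicates 2 and 3.

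The same held for genes of the Y chromosome. Eif2s3y, which encodes a subunit of a translation initiation factor, had 10.9, 10.5 and 9.89 FPKM in the wild-type libraries and was at 0 in all 3 labelled knockout, from 1851 counts against 0. Ddx3y, an RNA helicase, had 5.00, 4.64 and 3.92 FPKM in wild type and was also at 0. The histone demethylase gene Kdm5d and its relative Uty had 0.72 to 0.81 and 0.52 to 0.72 FPKM in wild type and at most 0.01 in libraries labelled knockout. All 4 were called lower in both fits, with adjusted p values of 4.71e-11 to 4.07e-07 (limma), and none was called lower in knockout BMDMs. Of their partners on the X chromosome, 2 of 7 were called higher with all libraries and 5 without replicate 1 (12.6% of all genes), among them Kdm6a (2.45, 2.55 and 2.57 to 2.86, 5.16 and 5.19 FPKM) and Zfx (7.09, 7.47 and 6.65 to 8.29, 13.5 and 13.2). In replicate 1 Kdm6a and Zfx lay nearer to wild type than to replicates 2 and 3. After correction for length and GC content without replicate 1, 1 partner was higher and 1 lower, and neither Kdm6a (0.48) nor Zfx (0.40) was called.

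**Figure D2:**
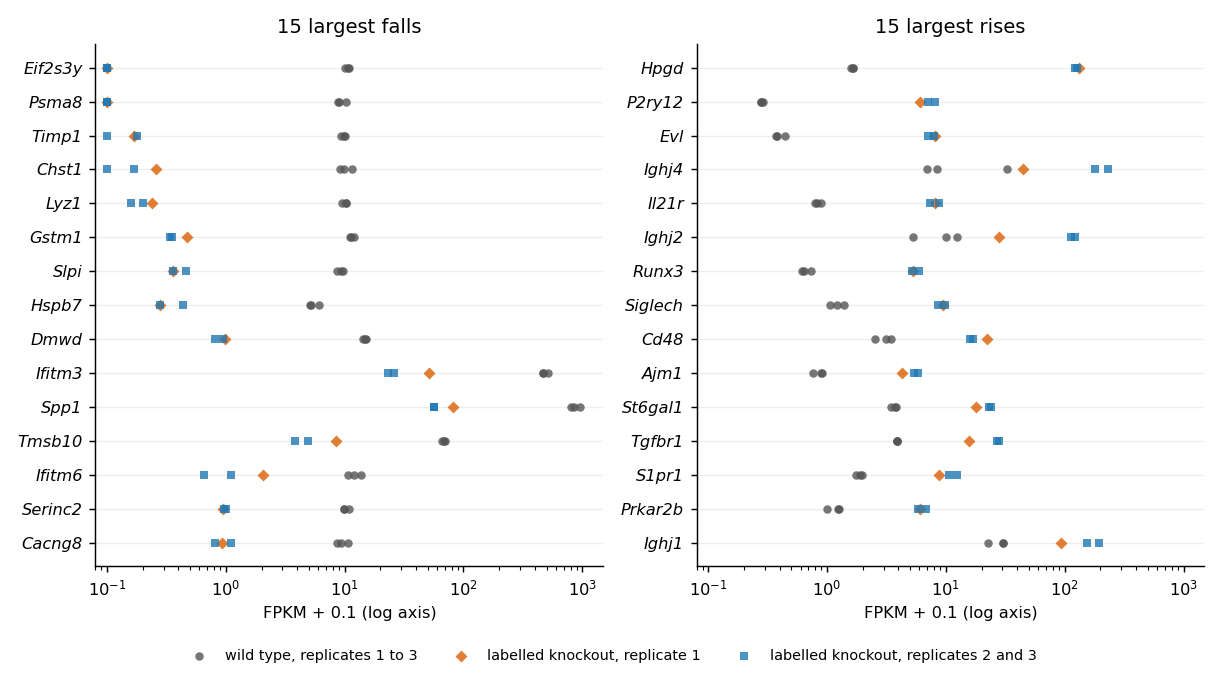
FPKM + 0.1 on a log axis in each of the 6 libraries for the 15 largest falls (left) and the 15 largest rises (right) among genes whose mean FPKM reached 5 in a genotype, with 1 point per library. The groups do not overlap, which the choice of genes required, and replicate 1 labelled knockout lies beside replicates 2 and 3 for Hpgd (132, 121 and 128 FPKM) and between them and wild type for Tgfbr1 (15.7 against 26.7 and 28.0).

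Genes induced by interferon were lower in the libraries labelled knockout. Of 36 tested, 26 were called lower and 1 higher, where 3.77% and 4.79% of all genes were, and 23 were lower in all 3 libraries. Their median log2 difference at an FPKM of 1 or more was -1.07 in replicate 1 and -1.45 in replicates 2 and 3, beside 0.04 and -0.00 for all genes. Ifitm3, a membrane protein that blocks virus entry, had 517, 469 and 465 FPKM in wild type and 50.8, 26.0 and 22.9 in libraries labelled knockout (log2 fold change -3.95, standard error 0.24, adjusted p = 8.18e-06, limma). Replicate 1 was the highest of the 3 but still 9.49-fold below wild type. Irf7, the transcription factor that amplifies interferon production, fell from 5.51, 5.12 and 4.57 to 0.43, 0.46 and 0.46 FPKM (-3.23, adjusted p = 2.27e-08), with all 3 libraries alike. Reads of Ifitm3 and of its neighbours may be shared within this gene family.

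The interferon falls covered sensors, effectors and regulators. Ifi27l2a, a small interferon-induced membrane protein, fell from 144, 148 and 137 to 27.1, 13.8 and 13.1 FPKM (log2 fold change -3.06, adjusted p = 3.42e-05, limma). Bst2, or tetherin, which holds budding virions at the cell surface, fell from 79.4, 73.0 and 68.2 to 33.7, 19.5 and 17.5 FPKM (-1.70, adjusted p = 0.000703). Lgals3bp, a secreted glycoprotein, fell from 28.4, 27.7 and 27.9 to 5.67, 5.24 and 4.81 FPKM (-2.40, adjusted p = 1.09e-07). Isg15, the ubiquitin-like modifier, and Usp18, the protease that removes it, fell by 2.67 and 3.14 on the log2 scale, and the chaperone Rtp4 by 3.47. Further members lower in all 3 libraries were Cmpk2, Ddx58, Ifi44, Irf9, Isg20, Mx2, Oas1a, Oas1g, Oas2, Oas3, Oasl2, Phf11d, Trim30a, Xaf1 and Zbp1, several of them at FPKM below 1. Ifit2 went the other way, from 1.98, 1.74 and 1.94 to 2.55, 3.34 and 3.47 FPKM (0.69, adjusted p = 0.00494).

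Of 21 chemokines tested, 7 fell, each of them in all 3 libraries, and 14 were not called. Of all genes 3.77% were called lower and 2.52% lower in all 3 libraries. Ccl3, an attractant of monocytes and T cells, had 218, 166 and 168 FPKM in wild type and 85.7, 46.1 and 43.0 in libraries labelled knockout (log2 fold change -1.72, adjusted p = 0.00129). Its neighbours on chromosome 11 moved alike, Ccl4 with a log2 fold change of -1.31, Ccl9 with -1.22 and Ccl5 with -2.38, and replicate 1 was the highest of the 3 for each. When the PBS libraries were fitted alone, the calls of Ccl3, Ccl4 and Ccl5 with all libraries were lost. Ccl2, which encodes the monocyte attractant MCP-1, was low in all libraries, at 0.53, 1.31 and 0.67 FPKM against 0, 0 and 0.06, from 42 counts against 1 (adjusted p = 0.000181). Cxcl10 and Cxcl16, a T cell attractant and a membrane-bound chemokine, fell by 1.27 and 0.96 on the log2 scale. The 6 chemokines with no count in either genotype could not be compared.

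Among chemoattractant receptors, 1 of 16 tested rose and 2 fell, beside 4.79% and 3.77% of all genes. C3ar1 and C5ar1, the receptors of the complement fragments C3a and C5a, went from 3.24, 3.44 and 3.15 to 0.73, 1.10 and 1.07 FPKM and from 1.46, 1.49 and 0.95 to 0.38, 0.29 and 0.16 (adjusted p = 3.95e-05 and 0.000586, limma). The rise was that of P2ry12. Cx3cr1, the fractalkine receptor, differed by less than 1.5-fold with all libraries (73.72, 77.14 and 77.97 against 85.3, 122 and 125 FPKM) and rose without replicate 1 (log2 fold change 0.70, adjusted p = 1.02e-05).

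Of 20 inflammatory cytokines tested, Spp1 and Il1rn fell, where 3.77% of all genes were called lower. Spp1, which encodes osteopontin, had 962, 847 and 803 FPKM in wild type and 81.3, 56.6 and 56.7 in libraries labelled knockout (log2 fold change -3.76, standard error 0.14, adjusted p = 3.83e-07). Il1rn, the interleukin-1 receptor antagonist, fell from 3.96, 3.07 and 3.06 to 0.34, 0.25 and 0.30 FPKM (-3.12, adjusted p = 6.71e-07). Tnf had 49.2, 45.8 and 46.5 FPKM in wild type and 41.5, 32.0 and 35.9 in libraries labelled knockout, with no overlap but under the fold threshold (-0.38, adjusted p = 0.0333). Il1b, Il6 and Nos2 reached at most 0.56, 0.05 and 0.06 FPKM in any library and were not called.

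Secreted defence proteins held some of the largest differences, with 4 of 15 tested lower and 1 higher, where 3.77% and 4.79% of all genes were. Lyz2, the macrophage lysozyme, fell from 2078, 2038.5 and 2039.7 to 408, 259 and 285 FPKM (log2 fold change -2.72, standard error 0.15, adjusted p = 3.56e-06, limma). Its paralog Lyz1 fell from 10.2, 9.42 and 10.1 to 0.14, 0.10 and 0.06 FPKM, although reads of these near-identical genes may be exchanged. Slpi, an inhibitor of neutrophil elastase, fell from 8.50, 9.29 and 9.54 to 0.26, 0.26 and 0.36 FPKM (-4.56, adjusted p = 1.31e-05), and Cfp, or properdin, which stabilises the complement convertase, from 120, 116 and 106 to 39.5, 23.8 and 24.1 (-2.01, adjusted p = 9.59e-05).

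Macrophage lineage and surface markers, by which the line is identified, stayed detected but shifted. Of 21 tested, 8 were called lower and 1 higher, where 3.77% and 4.79% of all genes were. In all 3 libraries 7 were lower, beside 2.52% of all genes. Cd14, the LPS co-receptor, had 457, 448 and 430 FPKM in wild type and 135, 90.4 and 96.7 in libraries labelled knockout (log2 fold change -2.07, adjusted p = 1.05e-05, limma). Adgre1, or F4/80, fell from 10.6, 11.1 and 10.5 to 4.31, 4.51 and 5.2 FPKM (-1.18, adjusted p = 4.33e-05). Itgam, or CD11b, fell from 6.16, 6.88 and 6.24 to 2.05, 2.01 and 1.57 FPKM (-1.73, adjusted p = 6.55e-05). The transcription factor Cebpb, an activator of inflammatory genes, fell by 1.05 on the log2 scale. Csf1r, the receptor for the growth factor M-CSF, stayed at 254, 268 and 267 FPKM in wild type and 314, 350.2 and 354 in libraries labelled knockout, under the fold threshold, as did Cd68 (577, 585 and 572 against 531, 417 and 414).

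Genes of osteoclasts, into which RAW264.7 cells can differentiate, were lower for 4 of 12 tested and higher for 1, beside 3.77% and 4.79% of all genes. Car2, the carbonic anhydrase that supplies acid for bone resorption, fell from 323, 308 and 303 to 124, 101 and 113 FPKM (log2 fold change -1.47, adjusted p = 5.07e-06, limma). Dcstamp and Ocstamp, which drive cell fusion, fell by 1.17 and 1.88 on the log2 scale, and Acp5, the tartrate-resistant acid phosphatase, by 1.15. Nfatc1, the master regulator of the lineage, rose from 20.47, 20.98 and 21.85 to 30.3, 43.2 and 45.3 FPKM (0.88, adjusted p = 0.00537), with replicate 1 nearest to wild type. Ctsk and Mmp9, proteases of mature osteoclasts, reached at most 0.54 and 0.04 FPKM.

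Receptors for uptake of particles moved in both directions. Of 25 scavenger and phagocytic genes tested, 2 rose and 6 fell in all 3 libraries, where 2.52% and 2.52% of all genes did. Cd36, which takes up oxidised lipids and apoptotic cells, rose from 19.8, 21.2 and 19.9 to 87.0, 93.7 and 95.5 FPKM (log2 fold change 2.18, standard error 0.08, adjusted p = 3.54e-07, limma). Clec7a, or dectin-1, a receptor for fungal glucan, rose from 2.13, 1.46 and 1.67 to 3.84, 3.62 and 3.31 FPKM (1.01, adjusted p = 0.00275). Clec4d and Clec4e, lectins that sense mycobacterial glycolipid, fell from 59.5, 54.7 and 53.1 to 14.9, 8.66 and 9.09 FPKM and from 10.3, 9.66 and 8.98 to 2.35, 2.26 and 2.93. The bridging proteins Mfge8 and Gas6, the Gas6 receptor Axl, and the scavenger receptor Msr1 were the other falls, with log2 fold changes of -1.49, -2.57, -1.27 and -0.84.

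For uptake through antibody, 1 of 9 genes in the list of Fc gamma receptors and their signalling rose and 2 fell, each in all 3 libraries, beside 2.52% and 2.52% of all genes. The rise was that of the kinase Syk and not of a receptor. Fcgr3, an activating receptor, had 3.02, 2.75 and 2.23 FPKM in wild type and 0, 0.22 and 0.04 in libraries labelled knockout (log2 fold change -4.06, adjusted p = 0.000250, limma). Fcgr2b, the inhibitory receptor, fell from 1.16, 1.22 and 1.09 to 0.49, 0.46 and 0.46 FPKM (-1.14, adjusted p = 3.52e-05). Syk, the kinase downstream, rose from 3.58, 3.53 and 3.70 to 5.67, 8.22 and 8.12 FPKM (0.99, adjusted p = 0.00185). Fcgr1, at 17.5 to 26.0 FPKM the highest of these receptors named here, was not called (0.26, adjusted p = 0.186).

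In the lysosome, 8 of 27 genes tested were lower, 4 of them in all 3 libraries, where 3.77% and 2.52% of all genes were. Gpnmb, a lysosomal and melanosomal glycoprotein, fell from 82.3, 84.3 and 84.5 to 13.6, 14.1 and 13.2 FPKM (log2 fold change -2.61, standard error 0.08, adjusted p = 1.22e-07), with replicate 1 level with the others. The cathepsin Ctsl fell from 47.2, 45.9 and 44.7 to 20.2, 14.1 and 15.7 FPKM (-1.48, adjusted p = 5.50e-05), and Ctse and Ctsh also fell in all 3 libraries.

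In the Toll-like receptor pathway, 4 of 21 genes tested were called higher and 2 lower, where 4.79% and 3.77% of all genes were. Without replicate 1, 7 were higher and 3 lower, beside 12.6% and 8% of all genes, and the median of the list was 0.06 in replicate 1 and 0.33 in replicates 2 and 3. Tlr1 and Tlr3, receptors for bacterial lipopeptide and double-stranded RNA, rose from 2.53, 2.39 and 2.27 to 4.70, 6.10 and 5.43 FPKM and from 0.30, 0.26 and 0.41 to 0.85, 1.09 and 0.87. Tlr9, the receptor for CpG DNA, was called higher (1.12, 1.41 and 1.27 against 1.90, 5.36 and 6.15 FPKM, adjusted p = 0.0208, limma), but replicate 1 stood well below replicates 2 and 3. Irak3, a brake on the pathway, fell from 2.73, 2.85 and 3.00 to 0.96, 0.59 and 0.93 FPKM (log2 fold change -1.70, adjusted p = 0.000300). Tlr4 itself had 4.74, 4.13 and 5.27 FPKM in wild type and 3.16, 5.94 and 5.53 in libraries labelled knockout, so that its groups overlapped.

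Antigen presentation genes were lower where they were called, apart from 1 rise in the class II list. Of 15 MHC class I genes tested, 6 fell with all libraries, 9 without replicate 1 and 4 in all 3 libraries, where 3.77%, 8% and 2.52% of all genes were lower. H2-D1, a classical class I heavy chain, fell from 151, 142 and 143 to 93.2, 61.2 and 60.4 FPKM (log2 fold change -1.05, adjusted p = 0.00191, limma), H2-M3 by 1.52 on the log2 scale, H2-T23 by 1.41 and the immunoproteasome subunit Psmb8 by 1.13. Class I genes are paralogs, so reads may be exchanged between them. In the class II list Cd80, a co-stimulatory ligand, fell from 1.42, 1.29 and 0.78 to 0.28, 0.27 and 0.25 FPKM (-1.75, adjusted p = 0.000190), and the invariant chain Cd74 was called lower with all libraries (160, 146 and 145 against 133, 84.7 and 85.3 FPKM, adjusted p = 0.0358). The call of Cd74 was lost under TPM and after correction for length and GC content, with and without replicate 1.

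Genes of lipid mediators moved in opposite ways along the pathway. Beside Hpgd, the prostaglandin D synthase Hpgds rose from 11.1, 9.88 and 10.3 to 21.7, 28.1 and 28.2 FPKM (log2 fold change 1.30, adjusted p = 0.000163, limma), and the prostaglandin E2 receptor Ptger4 from 1.85, 1.73 and 1.62 to 3.04, 3.82 and 4.04 (1.02, adjusted p = 0.00141). Alox5, which starts leukotriene synthesis, fell from 27.5, 29.5 and 28.7 to 9.34, 8.46 and 9.43 FPKM (-1.64, adjusted p = 3.56e-06). The prostacyclin receptor Ptgir fell from 9.59, 10.7 and 10.5 to 1.24, 1.5 and 1.97 FPKM (-2.65, adjusted p = 6.48e-05), and Ptgr1, which degrades leukotriene B4, by 1.32 on the log2 scale. The cyclooxygenases Ptgs1 and Ptgs2 were not called (adjusted p = 0.366 and 0.126). In total 3 of 21 genes of this list rose and 4 fell, where 4.79% and 3.77% of all genes were called higher and lower.

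Immediate early genes were lower for 9 of 20 tested and higher for 2, beside 3.77% and 4.79% of all genes. Ier3, an inducible survival gene, fell from 60.6, 51.5 and 52.3 to 10.2, 7.39 and 6.67 FPKM (log2 fold change -2.77, adjusted p = 2.66e-06, limma). Jun and Fos, which together form AP-1, fell from 16.1, 18.6 and 19.6 to 6.34, 6.53 and 6.35 FPKM and from 9.93, 9.46 and 10.1 to 3.56, 3.87 and 4.90. Klf6, Fosb, Dusp1 and Nr4a1 were also lower in all 3 libraries. Egr1, another immediate early factor, went the other way, from 1.55, 1.57 and 1.14 to 3.00, 3.12 and 4.33 FPKM (1.23, adjusted p = 0.000825), as did Egr3.

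Adhesion genes moved in both directions. Of 21 integrin and adhesion genes tested, Icam1 rose and Itgam, Itgb7, Itgal and Cd44 fell, each in all 3 libraries. The shares of all genes that did so were 2.52% and 2.52%. Itgb7, an integrin chain that homes lymphocytes to the gut, fell from 9.41, 8.81 and 8.18 to 1.07, 0.99 and 0.88 FPKM (log2 fold change -3.04, adjusted p = 6.39e-06, limma). Cd44, the hyaluronan receptor, fell from 34.1, 32.1 and 31.4 to 16.4, 17.0 and 17.1 FPKM (-0.94, adjusted p = 1.61e-05). Itga4 was at 97.5 FPKM in replicate 1, beside 83.5, 87.5 and 89.8 in wild type, and at 308 and 331 in replicates 2 and 3, so that it was called without replicate 1 alone (1.87, adjusted p = 1.96e-07, against 1.30 and 0.0525 with all).

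Matrix proteases and their regulators fell for 4 of 18 tested, each in all 3 libraries, where 2.52% of all genes fell. Among them were Timp1, Adam8 and Plaur. Adam8, a membrane protease of leukocytes, fell from 52.6, 55.5 and 54.9 to 24.8, 24.3 and 23.4 FPKM (log2 fold change -1.17, adjusted p = 3.68e-06, limma). Of 33 motility genes, 3 were called higher and 3 lower with all libraries, where at an FPKM of 1 or more 7.14% of all genes were higher and 5.59% lower. Without replicate 1, 6 were higher and 6 lower, beside 12.6% and 8% of all genes tested. At an FPKM of 1 or more these shares ran from 5.92% to 54.2% and from 1.4% to 37.6% by class of exonic length. Those that fell in all 3 libraries were Vim, the intermediate filament vimentin, which fell from 349, 352 and 358 to 167, 122 and 117 FPKM (-1.40, adjusted p = 0.000133), and Rhob, a small GTPase of endosomes, which fell by 1.32 on the log2 scale. Dock8 and Elmo1, which help to activate Cdc42 and Rac, were called higher with replicate 1 lying between wild type and replicates 2 and 3 (8.42, 8.64 and 9.56 to 12.2, 25.2 and 23.9 FPKM for Dock8). After correction for length and GC content Elmo1 was not called (log2 fold change 0.25 with all libraries). Under TPM the median of the motility list moved from -0.15 to 0.04, while that of all genes at an FPKM of 1 or more moved from 0.02 to 0.20.

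**Figure D3:**
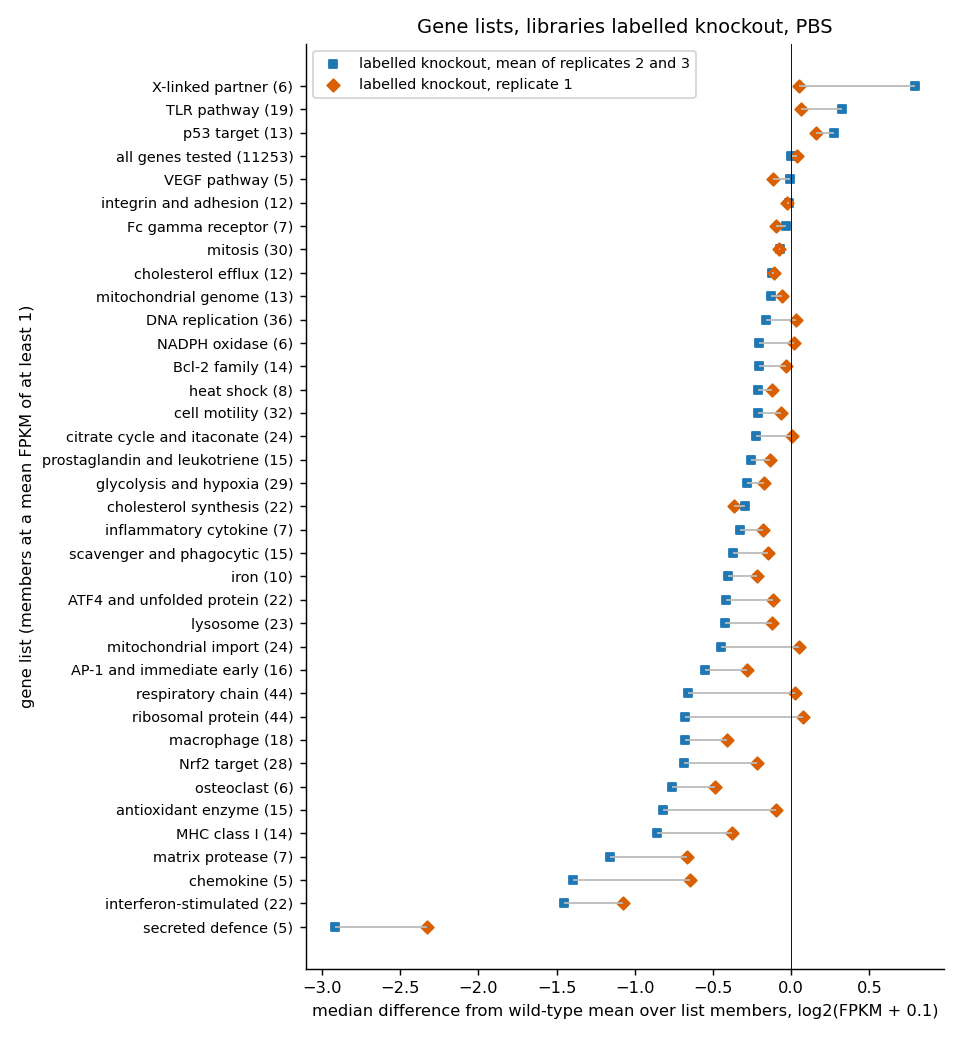
Median difference from the wild-type mean on the log2(FPKM + 0.1) scale over the members of each gene list at a mean FPKM of at least 1 (number in brackets), for replicate 1 labelled knockout (diamonds) and the mean of replicates 2 and 3 (squares). The interferon-stimulated list lies at -1.07 and -1.45 and secreted defence at -2.33 and -2.92, whereas the respiratory chain and ribosomal protein lists lie near 0 in replicate 1 (0.03 and 0.07) and at -0.66 and -0.68 in replicates 2 and 3.

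The itaconate pathway was examined because the study tied Olfml3 to it. Acod1, or Irg1, which makes itaconate from cis-aconitate, had 1.94, 2.86 and 3.48 FPKM in wild type and 0.53, 0.55 and 1.17 in libraries labelled knockout. The groups did not overlap, replicate 1 lay with replicate 2, and the log2 fold change was -1.79 (standard error 0.27, adjusted p = 0.00277, limma). The call was lost, with and without replicate 1, when the PBS libraries were fitted alone. Under that setting the calls of many other named genes with all libraries were lost too, as listed with the processing. With LPS Acod1 was not called (2200 FPKM in wild type against 2130 in libraries labelled knockout, log2 fold change -0.05). Nor was it in BMDMs with PBS (1.29 against 1.69 FPKM in knockout). The study's own evidence concerned IRG1 protein and itaconate rather than this RNA at rest. Idh1, the cytosolic isocitrate dehydrogenase, fell from 61.1, 61.5 and 58.2 to 38.8, 36.3 and 34.3 FPKM (-0.72, adjusted p = 0.000246). With all libraries the other 22 of 24 citrate cycle genes tested were not called. Without replicate 1, 6 of the 24 were called lower, where 8% of all genes were, and 3 after the correction for length and GC content that is described with gene length. All 24 reached a mean FPKM of 1, where the share called lower without replicate 1 ran from 1.4% to 37.6% by class of exonic length. Under TPM 1 was lower with all libraries. Aifm1, the mitochondrial protein that the study also edited in this line, had 33.2, 32.6 and 32.8 FPKM in wild type and 32.7, 30.6 and 28.1 in libraries labelled knockout (-0.11, adjusted p = 0.431).

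Targets of Nrf2, the transcription factor of the oxidative stress response, were called lower for 12 of 32 tested with all libraries (3.77% of all genes). Without replicate 1, 18 were lower (8% of all genes), and 6 were lower in all 3 libraries (2.52%). Under TPM 7 of the targets were lower (2.69% of all genes) and 1 higher. Gstm1, a glutathione transferase, fell from 11.2, 11.1 and 11.8 to 0.37, 0.25 and 0.24 FPKM (log2 fold change -4.90, adjusted p = 6.33e-05, limma). Blvrb, which reduces biliverdin, fell by 1.48 on the log2 scale, Gstp1 by 1.39 and the cystine transporter Slc7a11 by 1.04, and Nqo1 and Osgin1 completed the 6. Nfe2l2, which encodes Nrf2, was not called (46.8, 47.6 and 46.5 against 44.8, 45.2 and 47.3 FPKM). Of 17 antioxidant enzymes, 6 were lower with all libraries and 10 without replicate 1, but 2 in all 3, where 3.77%, 8% and 2.52% of all genes were. The median of this list was -0.09 in replicate 1 and -0.82 in replicates 2 and 3. Sod1, the cytosolic superoxide dismutase, had 97.7, 92.3 and 89.8 FPKM in wild type, 71.5 in replicate 1, and 41.7 and 41.3 in replicates 2 and 3.

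Genes of glycolysis and hypoxia were called lower for 6 of 30 tested, 3 of them in all 3 libraries, where 3.77% and 2.52% of all genes were. Under TPM 2 were lower, and with median-ratio scaling 8. Egln3, the oxygen-sensing prolyl hydroxylase, fell from 1.32, 1.21 and 1.51 to 0, 0.02 and 0.03 FPKM (adjusted p = 4.00e-07, limma). Ndrg1, which hypoxia induces, fell from 22.1, 20.8 and 19.9 to 6.48, 4.99 and 5.01 FPKM (log2 fold change -1.92, adjusted p = 5.75e-06), and Hk3, a myeloid hexokinase, by 0.73. Hif1a and Vegfa were not called.

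Iron and cholesterol genes were less uniform. In the iron list 5 of 14 tested were lower and 2 higher, and under TPM 2 and 2, where 3.77% and 4.79% of all genes were lower and higher before rescaling. Without replicate 1, 6 were lower, and 2 under TPM. Among the falls was Slc11a1, or Nramp1, the phagosomal metal transporter, which went from 9.60, 8.76 and 8.40 to 5.39, 4.56 and 4.43 FPKM (log2 fold change -0.89, adjusted p = 0.000964, limma). Steap3, an iron reductase, fell by 0.81 on the log2 scale, and Ireb2, a regulator of iron mRNAs, rose by 1.05. In cholesterol synthesis 7 of 23 were called lower, of which replicate 1 passed 1.5-fold for 0, and 1 was lower and 1 higher under TPM. The list's median was -0.36 in replicate 1 and -0.30 in replicates 2 and 3, beside 0.04 and -0.00 for all genes. Msmo1, a sterol oxidase, had 46.4, 43.2 and 40.9 FPKM in wild type and 30.04, 24.79 and 25.1 in libraries labelled knockout (-0.71, adjusted p = 0.00107), with replicate 1 nearest to wild type.

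Of stress genes, 4 of 24 ATF4 and unfolded protein response genes were lower, where 3.77% of all genes were. Among them was Creld2, a chaperone of the endoplasmic reticulum (106, 103 and 99.8 to 66.4, 44.4 and 44.2 FPKM). Of 10 heat shock genes only Hspa1b, an inducible Hsp70, was lower. It fell from 6.09, 4.44 and 5.70 to 1.28, 0.47 and 0.70 FPKM (log2 fold change -2.67, adjusted p = 0.000263, limma). Of 36 DNA replication genes 1 was called higher with all libraries, and of 30 mitosis genes 2. Of all genes 8.55% were called, and 12.7% of those at a mean FPKM of at least 1, which all members of both lists reached. Without replicate 1, 2 replication genes were higher and 3 lower, and 6 mitosis genes were higher and 1 lower, where 20.6% of all genes were called. Mki67, the proliferation marker, was at 65.4 FPKM in replicate 1, beside 66.2, 67.1 and 67.2 in wild type, and at 160.3 and 168 in replicates 2 and 3, and the gene has 10061 exonic bases.

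Replicate 1 lay nearer to wild type than to replicates 2 and 3 for most genes called without it. For the 4012 genes called without replicate 1 with a mean FPKM of 1 or more in a genotype, its position between wild type (0) and the mean of replicates 2 and 3 (1) had a median of 0.179. For 58.7% of these genes the position was below 0.25, and for 12.7% it was 0.75 or more. Genes called only without replicate 1 at a mean FPKM of at least 1 over the 6 libraries were long where higher (1257 genes, median exonic length 8057 bases) and short where lower (1062 genes, 1709 bases), against 3916 bases over all genes. Genes changed in all 3 libraries had lengths of 4180 and 2740 bases.

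The dependence on length was graded. Genes with at least 8000 exonic bases lay 0.64 above the wild-type mean in the median in both replicate 2 and replicate 3 and 0.05 above it in replicate 1, and 54.2% of them were called higher without replicate 1. Genes of 1000 to 2000 bases lay at -0.48 and -0.49 in replicates 2 and 3 and at 0.02 in replicate 1. Across 11253 genes, which are not independent, the difference of replicates 2 and 3 correlated with log2 length at 0.196 and with GC content at -0.234, and that of replicate 1 at -0.027 and -0.064. The differences of replicate 1 and of replicates 2 and 3 correlated at 0.556.

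**Figure D4:**
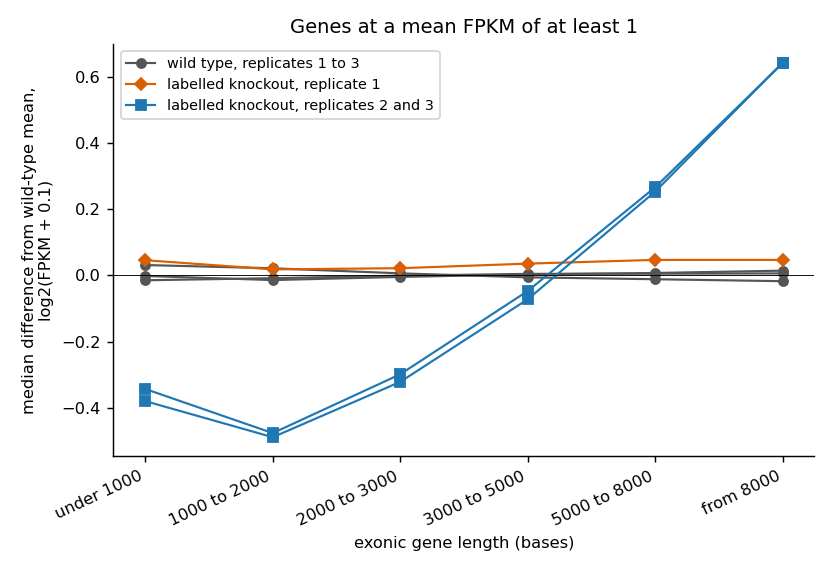
Median difference from the wild-type mean on the log2(FPKM + 0.1) scale by exonic gene length in 6 classes, 1 line per library, over 11253 genes at a mean FPKM of at least 1. Replicates 2 and 3 labelled knockout run from -0.34 and -0.38 for genes under 1000 bases to 0.64 for genes of 8000 bases or more, whereas replicate 1 stays between 0.02 and 0.05.

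Short housekeeping genes carried this pattern. Of 44 ribosomal protein genes, 0 were called with all libraries by limma (1 higher and 26 lower at an unadjusted p under 0.05, and 3 lower by edgeR, where 4.99% of all genes were, and 4 by DESeq2, where 4.82% were). At an unadjusted p under 0.05 by limma, 4642 of all 26740 genes were higher and 3357 lower. Without replicate 1, 31 were called lower, with a median of 0.07 in replicate 1 and -0.68 in replicates 2 and 3. Of all genes 8% were called lower in that fit. At an FPKM of 1 or more, 26.9% of genes under 1000 bases and 37.6% of those of 1000 to 2000 bases were. Of 44 nuclear genes of the respiratory chain, 0 were called with all libraries by limma (1 higher and 29 lower at an unadjusted p under 0.05, and 6 lower by edgeR and by DESeq2) and 29 lower without replicate 1, beside the same shares of all genes. Sdhb, the iron-sulfur subunit of succinate dehydrogenase, had 92.0, 94.6 and 92.3 FPKM in wild type, 90.7 in replicate 1 and 58.9 and 58.6 in replicates 2 and 3. Once length and GC content were subtracted in each library, an alternative added after seeing the data, 8 ribosomal protein and 7 respiratory chain genes were called lower without replicate 1 (7.7% of all genes), and under TPM 8 and 7 (3.96% of all genes). The interferon-stimulated list had 26 lower calls without replicate 1 and 27 under that correction. Mitochondrial import showed the same, with 0 of 24 called with all libraries by limma (9 lower at an unadjusted p under 0.05, and 0 by edgeR and DESeq2), 7 lower without replicate 1 and 3 after the correction. The last 2 counts stand beside 8% and 7.7% of all genes.

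Kinds of transcript differed as well. Genes lying inside the span of another tested gene, which cannot be told apart from it without strand, had a median difference of 0.51 in replicates 2 and 3 and 0.12 in replicate 1, against 0.01 and 0.03 for other genes. Small nucleolar RNA genes lay at 1.25 and 0.33, and antisense genes at 0.53 and 0.25. By contrast, processed pseudogenes lay at -0.35 and 0.01. Among single genes, Zbed6, an intronless gene within an intron of Zc3h11a, had 0.18, 0.16 and 0.16 FPKM in wild type, 0.22 in replicate 1, and 6.32 and 5.96 in replicates 2 and 3 (log2 fold change 3.12 with all libraries, adjusted p = 0.0590, limma, and 4.55 without replicate 1, adjusted p = 1.09e-07). Ankhd1, Pdpr, Uprt, Zfp971 and Mfsd4a behaved like it, and the genes highest in replicate 1 relative to replicates 2 and 3 were mostly ribosomal protein pseudogenes, such as Rps27a-ps2 (53.9 against 8.95 and 16.0 FPKM), whose reads may come from their parent genes.

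Markers of other cell types gave little signal. The summed FPKM of the T and NK cell, neutrophil, fibroblast, epithelial and endothelial lists was at most 0.98 in every library, and 0 of their 23 tested members were called by limma with all libraries or without replicate 1 (0 at an unadjusted p under 0.05 with all libraries, 1 higher by edgeR and 0 by DESeq2). Of the B cell list Ighm alone was called, while Cd79a and Cd79b stayed at or below 0.21 FPKM and Pax5 at 0 in all 6 libraries. Of the dendritic cell list Siglech alone was called (1.11, 0.97 and 1.28 to 9.45, 9.72 and 8.45 FPKM), with Flt3 at 0 in all 6.

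Chromosome 9 stood apart from the others. At a mean FPKM of at least 1, its 348 genes below 70 Mb in the deposited table lay above the wild-type mean by a median of 0.54, 0.52 and 0.55 in replicates 1, 2 and 3 labelled knockout, which is 1.45-fold in replicate 1. Above the wild-type mean were 313, 278 and 271 of the 348 genes in the 3 libraries. Of these genes 137 were called higher (39.4%) and 9 lower, where 12.7% of all genes at this level were called, 7.14% higher and 5.59% lower, and 6.02% of the 10622 genes on other chromosomes were higher. From 70 Mb the medians of 283 genes were 0.05, 0.07 and 0.07. Named genes of that region were Icam1, whose 13.8, 13.7 and 13.8 FPKM became 29.3, 26.8 and 29.1 (log2 fold change 1.04, adjusted p = 9.20e-06, limma), and Tirap, Ireb2, Anln and Kif23. Of the 307 genes at this level that rose in all 3 libraries, 89 (29%) lay there, against 3.09% of all genes. The median of this region was 0.50 in the LPS libraries and 0.03 in BMDMs. DNA copy number was not measured.

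**Figure D5:**
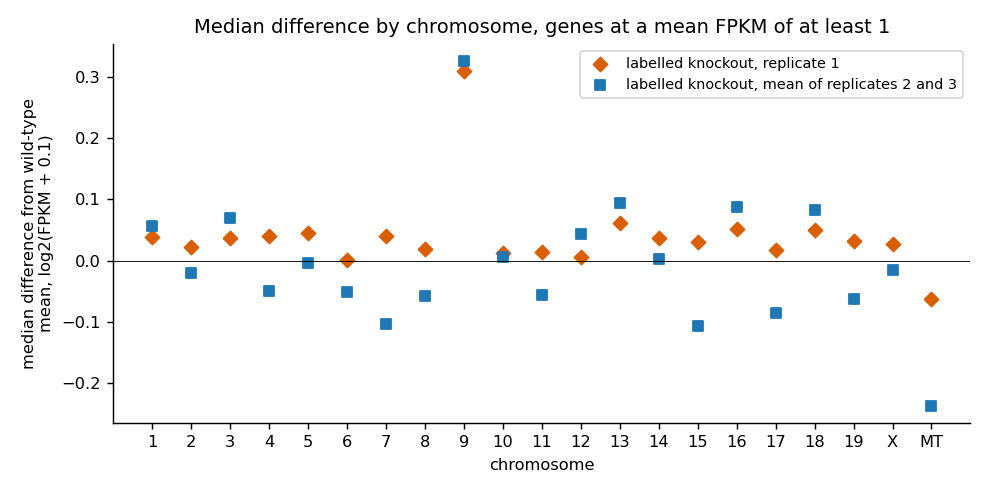
Median difference from the wild-type mean on the log2(FPKM + 0.1) scale per chromosome over genes at a mean FPKM of at least 1, for replicate 1 labelled knockout (diamonds) and the mean of replicates 2 and 3 (squares). Chromosome 9 lies at 0.31 and 0.32, and in replicate 1 the other nuclear chromosomes lie between 0.00 and 0.06.

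The LPS libraries and BMDMs share no library with this comparison, although the LPS libraries share the fit and its estimate of spread. In RAW264.7 with LPS 17.3% of genes were called, 9.73% higher and 7.6% lower, and in BMDMs with PBS 1.82%, 0.901% higher and 0.916% lower. Of the 1349 genes changed in all 3 libraries, 883 (65.5%) were called with LPS, 874 of them in the same direction, and they make up 19% of the 4636 genes called there. In BMDMs 63 of the 1349 (4.67%) were called, which is 12.9% of the 490 called there, and 51 had the same direction. Of the 3275 genes called only without replicate 1, 1512 (46.2%) were called with LPS and 53 (1.62%) in BMDMs, 28 of these in the same direction. The LPS libraries labelled knockout carried the length pattern of replicates 2 and 3, with genes of 8000 bases or more at 0.34 to 0.37 beside -0.15 to -0.17 in wild type with LPS.

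In BMDMs the interferon-stimulated list was lower as well. All 23 of its members that were lower in all 3 RAW264.7 libraries were also called lower in knockout BMDMs with PBS, as were 34 of the 36 tested there, and 14 of the 23 were lower in RAW264.7 with LPS. In BMDMs Ifitm3 had a log2 fold change of -2.11, Irf7 of -3.45, Usp18 of -2.60 and Rtp4 of -3.44 (adjusted p from 6.85e-08 to 1.16e-06, limma). Ccl5 was lower in both cell types too, with -4.10 in BMDMs, whereas Spp1, Lyz2, Cd14, Gpnmb, Hpgd and Cd36 were not called in BMDMs (-0.33 to 0.49). In the mitosis list 28 of 30 genes were called higher in knockout BMDMs and 2 of 30 in RAW264.7 libraries labelled knockout.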

How the data were processed

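Poly(A) RNA of RAW264.7 cells and BMDMs was sequenced as paired reads of 150 bases. For each cell type the authors deposited a table of read counts per gene and of the FPKM made from them. FPKM computed here from counts, exonic length and library total matched the deposited FPKM within 1% for 99.9% of 62238 values of at least 50 counts. No aligner or counting program is given in the sources used here. Positions are printed as deposited. The labels name mm10, but of 52073 genes matched to GENCODE M21 of that build only 1472 had the same start and end, so no sequence was read by position.

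limma 3.58.1 (R 4.3.3) was fitted to log2(FPKM + 0.1), the log2 values being computed from the deposited FPKM, with 1 fit of 4 group means over the 12 RAW264.7 libraries, with the thresholds of the study's methods, and a second fit of 11 libraries without knockout replicate 1. All 26740 genes with an FPKM above 0 in 1 or more of the 12 libraries were tested, with Benjamini-Hochberg adjustment over all of them and default moderation without an intensity trend. BMDMs were fitted likewise over their 12 libraries. The procedure was tested on simulated data. The simulated counts had the same dispersion for all genes and neither an outlying library nor a dependence on gene length. The test therefore does not cover these features of the data.

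Comparisons of lists are counts and medians without a set test. The 48 lists and the genes named were chosen with earlier results of these data known. Named genes were those the study measured, those on the Y chromosome (4), the 15 largest rises and 15 largest falls with a mean FPKM of at least 5 and no overlap of the groups, the 10 changed genes of highest FPKM, the 10 highest and 10 lowest in replicate 1 relative to replicates 2 and 3, and up to 4 members of each list with the largest changes, plus members needed to read a list, which were chosen after their values were seen.

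Alternatives were pseudocounts of 0.01 and 1, filters at an FPKM of 0.1 and 1 in 3 libraries, TPM and median-ratio scaling, an intensity trend, the 6 PBS libraries alone, a block for the replicate number, calls by adjusted p only, fits with 1 library omitted, and edgeR 4.0.16 and DESeq2 1.42.0 on the deposited counts. Corrections for length, and for length and GC content, were added after seeing the data. The totals of 13145037 to 16478616 counts per library limit the precision of low genes, as for Ccl2 with 42 counts over the 3 wild-type libraries. Other tools were Python 3.11.15, pandas 2.3.3, numpy 2.4.6 and matplotlib 3.10.9.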

Additional observations from a re-analysis of the deposited data

Results flagged for a closer look

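For 31 of the 163 named genes the difference between libraries labelled knockout and wild type differed between LPS and PBS by limma's interaction test (adjusted p under 0.05 over all genes, and also without replicate 1, where the largest adjusted p was 0.0386). The share of all genes tested that passed is not given here, so the count of 31 has no background to be read against. Values below are the log2 difference with LPS minus that with PBS. Olfml3 itself had 4.13 (1.96 with PBS and 6.10 with LPS, adjusted p = 0.000283).

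For 10 of these genes a group lay at or near 0 FPKM, where the pseudocount of 0.1 bounds the fold, so that the value compares no folds and reads nothing about a larger or smaller difference. In libraries labelled knockout with PBS, Ccl2 was at 0.02 FPKM (interaction -2.09), and Flt1 was at 0.0167 with PBS and 0.01 with LPS (-0.95). With LPS, Chst1 and Egln3 were at 0 in all 3 libraries labelled knockout (3.42 and 1.05). In wild type with LPS, P2ry12 was at 0 (-3.65), S1pr1 at 0.00667 (-2.03), St6gal1 at 0.113 (-2.20) and Hpgd at 0.0567 FPKM (-3.17). Il6 and Nos2 were at or near 0 in both genotypes with PBS (2.19 and -2.41).

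Some falls of the PBS libraries were smaller with LPS. Many named genes were chosen for a large PBS difference, and the same PBS values enter the interaction. A smaller difference in other libraries is thus favoured by the choice of genes. Among interferon-stimulated genes these were Rtp4 with 2.42, Irf7 with 2.41, Ifitm3 with 2.20 and Usp18 with 1.99. Among chemokines and their receptors, Ccl3 had 1.63, Ccl9 1.25 and C3ar1 1.17, and neither Ccl3 nor Ccl9 was called with LPS (log2 fold changes of -0.10 and 0.03). The same held for Timp1 with 2.77, whose fall with PBS ended at 0.05 FPKM, and for Spp1 with 1.96, Serinc2 with 1.36, Il1rn with 1.19, Cd44 with 0.89 and Klf6 with 0.76. Slc7a11 turned from -1.04 to 1.08 with an interaction of 2.12, and Rhob from -1.32 to 0.62 with 1.95.

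The rises of Evl and Il21r were smaller with LPS, with -1.55 and -1.48, and both genes were likewise chosen for a large PBS difference. Adam8, Steap3 and Idh1 were lower by more with LPS than with PBS, with -1.04, -0.75 and -0.67.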

How the results depend on the processing

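With all 6 libraries the count of 2287 genes became 1474 with a pseudocount of 1 and 942 when the 6 PBS libraries were fitted alone, and leaving out 1 library at a time gave 1299 to 5496. It was 1369, 1465 and 1393 without wild-type replicate 1, 2 and 3, and 5496, 1322 and 1299 without replicate 1, 2 and 3 labelled knockout. The other settings gave 1811 to 3388, the highest by edgeR. Without replicate 1 the count of 5496 became 8889 by the adjusted p alone, other settings gave 3756 to 6084, and leaving out a further library gave 5131 to 5303. Leaving out replicate 2 or 3 as well leaves 1 library labelled knockout, which is assumed to vary like the other groups. With a replicate block the counts were 1888 and 5229. Replicate numbers did not pair the libraries: correlations of deviations between libraries of the same number ran from -0.0395 to 0.0844.

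The median position of replicate 1, 0.179, became 0.211 over genes called with LPS, 0.137 at a mean FPKM of 10 and 0.293 after length and GC correction. Of the 163 named genes' values with all libraries, 3003 kept their call, 215 lost it and 39 gained it, and without replicate 1 3000, 82 and 12, with none reversed among the settings tried. Calls with all libraries were lost under 12 settings for Kdm6a and under 11 for Ftl1, Pole and Txn1. With the PBS libraries fitted alone, the lost calls included those of Acod1, Ccl3, Ccl4, Ccl5, Syk, H2-D1, Psmb8 and Plaur. Those of Nfatc1, Tirap, Blvrb, Slc7a11, Creld2, Ptgr1, Glrx, Sod1 and Dock8 were lost under this setting as well.

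Whether the libraries labelled knockout came from 1 clone is not stated in the sources used here. Counting error limits low genes, such as Il6 with 3 counts in wild type and 2 in the libraries labelled knockout. The cause of the moved values was not tested, apart from the length and GC corrections, which were added after seeing the data.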
